A study of Mus musculus with 12 samples.

Results

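Mitochondrial ribosomal protein genes were taken as every row of the count table whose symbol reads Mrpl or Mrps followed by a number, with a letter a, b or c allowed for Mrps. The rule gave 77 of the 24062 genes, 48 of the large subunit (Mrpl) and 29 of the small subunit (Mrps), on 17 chromosomes. The mRNA came from oocytes of female mice, collected at day 0.5 after mating with vasectomized males, so the eggs met no sperm. The females had eaten a modified D12492 high-fat, high-calorie feed (HFD) or the feed that the labels call D12492 and control diet (CD) for 9 weeks beforehand, and both groups ate CD while they were mated. Both feeds carry the same product code in the labels, so what the control feed was, and with it the contrast between the diets, is uncertain. Each diet had 6 females and 6 libraries, and each library was made from 4 pooled oocytes. The labels do not say which female gave which pool, and name no genotype, strain or age, so p-values measure the spread between pools, part of which may be technical. A level here is a share of the mRNA in a pool, so fewer cells of a kind and less of an mRNA per cell cannot be told apart.

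The mitochondrial ribosome makes the few proteins that mitochondrial DNA encodes, all of them subunits of the respiratory chain and ATP synthase. Its RNA comes from the mitochondrial genome, but every protein of both subunits is made in the cytosol from nuclear mRNA and imported. Some members descend from bacterial ribosomal proteins and others exist only in mitochondria. A full-grown oocyte is close to silent in transcription, so its mRNA is a store laid down during growth, and it passes its mitochondria to the embryo.

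Before the values by diet, the libraries themselves are described. Gene counts summed to 8409491 to 13793598 per HFD library and 8556396 to 10477316 per CD library, and 72 to 77 of the 77 members had at least 1 count in each. Every count in HFD replicates 1, 2, 4 and 6 was even, which held for no CD library. These totals may therefore not be on the same scale, and depth cannot be compared between the diets from them. HFD replicate 3 stood apart with 14755 genes detected, against 12229 to 13052 elsewhere. It also stood apart in the oocyte markers Zp3 (3940 CPM, at most 195 elsewhere), Zp2 (1060, at most 77.5) and Figla (54.7, at most 0.883). Not all oocyte markers were raised in that library. Among the 15 tested it was the highest of the 12 libraries for 7, and another library was highest for the rest. In Dppa3 it was the lowest HFD pool. CPM are counts scaled to a library total of 1000000, with TMM factors between libraries. Reads assigned to no gene were 66.5% to 72.9% of the reads tallied in HFD and 62.3% to 66.6% in CD, highest in HFD replicate 3 and lowest in CD replicate 3. HFD replicates 1 and 2 and CD replicates 2 and 4 held only 3.84 to 9.40 CPM of Mos, the kinase that holds the egg in metaphase, against 146 to 1700 CPM in the other 8. The same 4 held 543 to 616 CPM of Gdf9, against 4600 to 9640 in the other 8, and 11 to 15.1 CPM of Zp3, against 46.0 or more. Not all oocyte markers were low in them. For 7 of 15 tested, CD replicates 2 and 4 were the lowest CD pools and HFD replicates 1 and 2 lay below HFD replicates 4, 5 and 6. Both orders were turned around for 1, Nobox (all genes: 12.9% and 13.0%). For Padi6 and Dppa3, CD replicates 2 and 4 were the highest CD pools. All 16 oocyte markers listed had counts in some library, Figla being at 0 in HFD replicates 1 and 4 and CD replicate 5, and their sum ran from 13200 to 31300 CPM in HFD and from 10900 to 21000 in CD. What part these differences have in the members' values was not tested beyond leaving libraries out. Of the markers of other cells, summed cumulus and granulosa markers ran from 119 to 1820 CPM in HFD and 133 to 1360 in CD, with Amh, Ptx3 and Pgr at 0 in every library and 92.7% of the sum from Serpine2. Summed oviduct markers ran from 12 to 117 and 22 to 219 CPM, stromal, endothelial and muscle markers from 32.2 to 46.3 and 23.8 to 167, and blood and immune markers from 2.49 to 9.39 and 2.19 to 7.40, the 4 globin genes being at 0. In the 4 libraries low in Mos the cumulus and granulosa sum was 119 to 153 CPM, against 331 to 1820 in the other 8. Their oviduct sum was 12 to 43.6 CPM, against 48.4 to 219. The stromal and blood sums overlapped between these sets of libraries.

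Because the members are read together here, the start of their genes is shown first. RefSeq promoter sequences (GRCm38.p6), which cover 300 bases of which 250 lie before the start of transcription, were at hand for 68 members. Each was searched on both strands for the letters CCGGAAG of the ETS family, to which the mitochondrial regulator GABP belongs, for AAGATGGC of the factor YY1, and for the motif of nuclear respiratory factor 1 with any base allowed at 1 place. The stretches below come from 6 of the members described further on, with the matched letters in capitals. Mrpl9, Mrpl18, Mrpl53, Mrps16, Mrps18a and another place in Mrpl32 also held a match, and their stretches are not printed. Only matches lying wholly before the start are printed or listed here. The counts below take all 300 bases, so other members can hold a match after the start.
Mrpl34, chr8:71464871-71464913, plus strand, ETS letters: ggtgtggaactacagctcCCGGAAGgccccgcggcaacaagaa
Mrps18c, chr5:100798585-100798627, plus strand, ETS letters reversed: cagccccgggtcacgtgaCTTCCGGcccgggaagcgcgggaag
Mrpl32, chr13:14613254-14613287, minus strand, YY1 letters reversed: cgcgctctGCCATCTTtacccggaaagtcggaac
Mrpl57, chr14:57826164-57826209, plus strand, nuclear respiratory factor letters: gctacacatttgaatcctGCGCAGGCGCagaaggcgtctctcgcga
Mrpl12, chr11:120484538-120484583, plus strand, nuclear respiratory factor letters reversed: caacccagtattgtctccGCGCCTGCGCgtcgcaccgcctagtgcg
Mrps21, chr3:95871578-95871623, minus strand, nuclear respiratory factor letters reversed: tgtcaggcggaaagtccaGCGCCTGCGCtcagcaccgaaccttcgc
The ETS letters stood in 25 of the 68 members (36.8%), against 9.93% of 27025 genes in the promoter table and 20.8% of the 7536 of them that were tested for expression here. YY1 letters stood in 12 members (17.6%, against 3.19% and 5.69%) and nuclear respiratory factor letters in 13 (19.1%, against 5.19% and 12.4%). Large-subunit genes held 10 of those 13, among 42 with a promoter, and small-subunit genes 3, among 26. The other motifs did not share this lean: ETS letters stood in 14 large-subunit and 11 small-subunit genes, and YY1 letters in 6 and 6. At least 1 of the 3 motifs was found in 42 members, 61.8%, against 16.4% of all genes and 34.1% of tested genes. A TATAAA box, searched in the same way, stood in 5 members (7.35%, against 15.7% and 8.92%). These are matches of letters and not sites shown to be bound, and genes were not matched on base composition.

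Nearly every member stood on the same side in the comparison of the diets, and no single one passed the test. The filter on low counts left 69 members, 42 large and 27 small. Of these, 66 had a log2 fold change (HFD minus CD) above 0 and 3 below, where 51.8% of all 9935 tested genes were above 0. The median log2 fold change was 1.31 over the members, against 0.04 over all tested genes. By edgeR's quasi-likelihood test 0 members and 0 genes (0.0%) had an adjusted p under 0.05, the smallest adjusted p being 0.0913. At an unadjusted p under 0.05, 34 members stood higher (49.3%) and 0 lower, against 13.4% and 8.89% of all genes. DESeq2 called 17 members higher (24.6%) and 0 lower, against 4.92% and 2.82% of all genes, and gave no adjusted p to 8 members. For no member did all 6 HFD pools lie above all 6 CD pools, which was so for 1.17% of all genes, and for 0 members did they all lie below, which was so for 1.28%. All 6 HFD pools lay above the CD mean for 15 members (21.7%, against 7.19% of all genes).

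HFD replicate 3 held the highest value of the 12 libraries for 45 of 69 members (65.2%, against 22.6% of all genes). Without that library, 65 members were above 0 and 4 below, against 47.9% of all genes above 0. The median was then 0.70, against −0.04 over all genes. An unadjusted p under 0.05 was reached by 19 members higher (27.5%, against 9.33%) and 0 lower (against 8.0%). At the other end, CD replicate 3 was the lowest of all 12 libraries for 37 members (53.6%, against 17.2% of all genes). With both libraries left out the members' median was 0.55, against −0.02 over all genes, with 60 members above 0 and 9 below. Removing the 4 libraries low in Mos gave 1.92, against 0.05 over all genes. Removing HFD replicate 3 as well gave 0.89, against −0.06, with 64 of 69 members and 4666 of 9935 genes above 0.

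**Figure D1:**
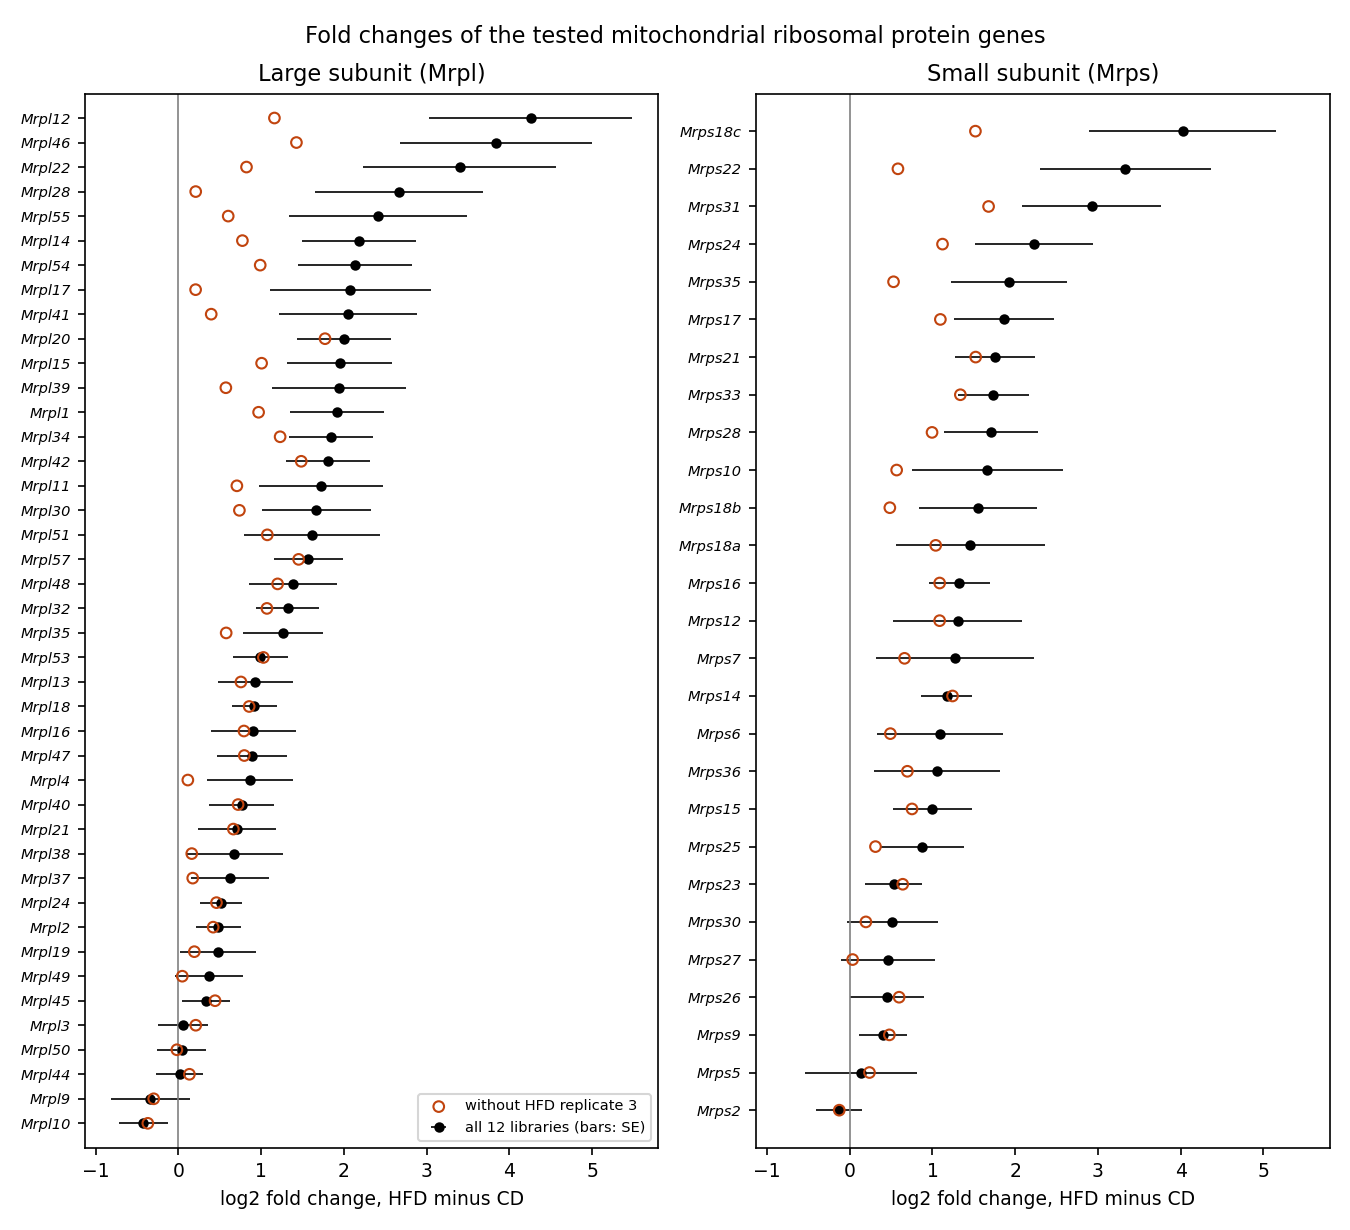
Log2 fold change (HFD minus CD, x axis) of each of the 69 tested members, large subunit on the left and small on the right, sorted by size. Filled points with bars give edgeR's estimate and its SE over 12 libraries, and open circles the estimate without HFD replicate 3. All but 3 filled points lie right of 0, and the members with the largest values, such as Mrpl12 (4.26 against 1.16), move most when that library is left out.

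Large and small subunit gave nearly the same picture. The median log2 fold change was 1.29 over the large-subunit members (40 above 0, 2 below) and 1.31 over the small-subunit members (26 above, 1 below), a difference of −0.01. Per library, the mean log2 CPM over large-subunit members was 4.23 at the lowest, 4.37 at the median and 6.24 at the highest in HFD, and 3.03, 3.71 and 4.18 in CD. Over small-subunit members it was 4.17, 4.41 and 6.28 in HFD and 2.57, 3.68 and 4.27 in CD. For the large subunit every HFD pool lay above every CD pool, by a margin of 0.05 between HFD replicate 4 (4.23) and CD replicate 4 (4.18). Nuclear-encoded respiratory chain and ATP synthase subunits were separated too, with the lowest HFD pool at 3.75 and the highest CD pool at 3.66. Cytoplasmic ribosomal proteins were not (lowest HFD pool 2.35, highest CD pool 2.84). For the small subunit CD replicate 4 (4.27) overlapped with HFD replicates 2 (4.24), 4 (4.17) and 5 (4.27). The separation in the large subunit was lost when Mrps18a and Mrps30, which the structure of the ribosome places there, were counted with it: HFD replicate 4 (4.13) then lay below CD replicates 2 (4.17) and 4 (4.22).

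The mean level per gene was close between the subunits in most pools, which does not measure the ratio of their total mRNA. Summed over all members of a subunit, CPM averaged 2677 (large) and 1627 (small) in HFD, and 1509 and 724 in CD. Large minus small mean log2 CPM was −0.02 ± 0.07 (SD, n = 6) in HFD and 0.12 ± 0.19 (n = 6) in CD. CD replicate 3 stood apart with 0.46, where the other 5 CD pools ran from −0.09 to 0.16. That library was the lowest of 12 for 18 of 27 small-subunit members and for 19 of 42 large-subunit members. With those 2 genes moved and Mrps36 left out, the median log2 fold changes were 1.29 and 1.31.

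**Figure D2:**
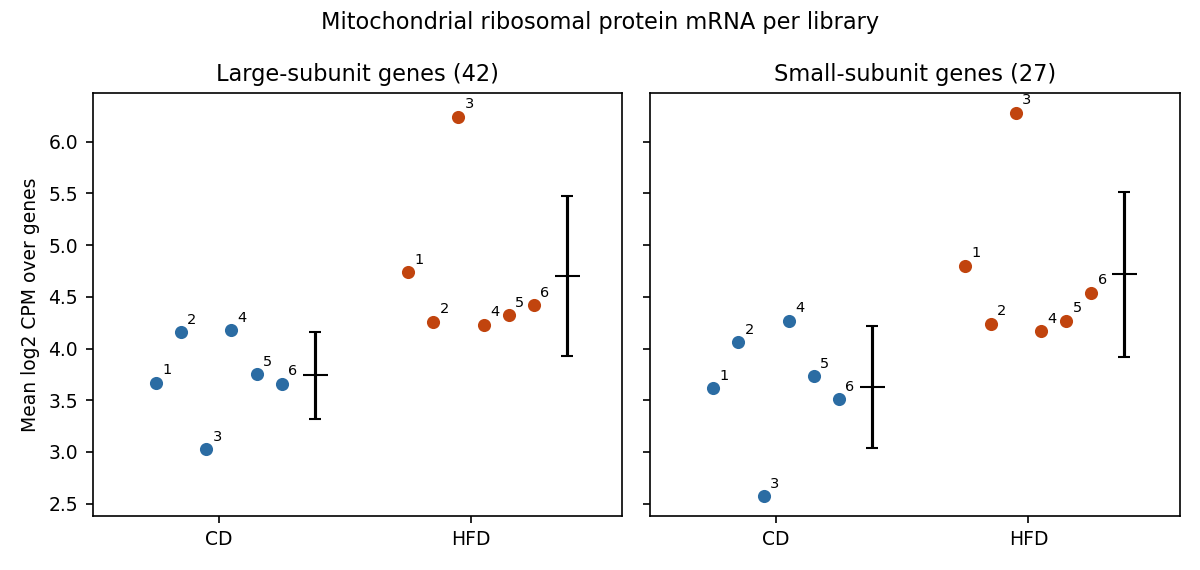
Mean log2 CPM (y axis) over the 42 tested large-subunit genes (left) and the 27 tested small-subunit genes (right) in each of the 12 libraries, numbered by replicate, with the mean and SD of each diet beside the points. HFD replicate 3 stands above all others (6.24 and 6.28) and CD replicate 3 below all others (3.03 and 2.57) in both panels.

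Among the large-subunit members, Mrpl57, a protein found only in mitochondrial ribosomes (chromosome 14, 57826234 to 57829296, mm10), stood at 38.4, 49.3 and 104 CPM in HFD (lowest, median, highest) and 6.99, 20.2 and 39.4 CPM in CD. The diets overlapped only where HFD replicates 4 (38.5) and 6 (38.4) fell below CD replicate 4 (39.4). The estimated log2 fold change was 1.57 ± 0.42 (SE), and 1.45 without HFD replicate 3 (edgeR, adjusted p = 0.0913 with all libraries). Mrpl42, likewise specific to mitochondria (chromosome 10, 95480805 to 95501940), stood at 21.5, 46.3 and 106 CPM in HFD and 3.40, 13.3 and 31.9 CPM in CD. The diets differed by 1.80 ± 0.51 on the log2 scale (edgeR, adjusted p = 0.0956). All 6 HFD pools of both genes lay above the CD mean.

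Mrpl34 and Mrpl20 are counterparts of bacterial L34 and L20. Mrpl34 (chromosome 8, 71464959 to 71465747) stood at 11.2, 30.1 and 118 CPM in HFD and 8.60, 11.1 and 16.7 CPM in CD. HFD minus CD came to 1.85 ± 0.51 in log2 units (edgeR, adjusted p = 0.0929). Its highest value was again HFD replicate 3, without which the fold change was 1.23, and HFD replicate 2 (11.2) lay inside the CD range. With all libraries and the trend over transcript length removed, Mrpl34 came to 0.19. Mrpl20 (chromosome 4, 155802878 to 155809975) was rare, at 1.99, 5.57 and 9.27 CPM in HFD and 0.662, 0.882 and 3.46 CPM in CD. On the log2 scale HFD minus CD was 2.0 ± 0.57 (edgeR, adjusted p = 0.0956). Mrpl32, whose protein must be cut by a mitochondrial protease before it joins the ribosome (chromosome 13, 14608184 to 14613165), stood at 55.2, 128 and 236 CPM in HFD and 34.4, 41.7 and 89.9 CPM in CD. Its log2 fold change was 1.32 ± 0.38 (edgeR, adjusted p = 0.0959), and the HFD pools that fell inside the CD range were replicates 1 (78.3) and 2 (55.2).

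Mrpl12 forms the flexible stalk that recruits translation factors, and its fold change moved more than that of any other tested member when HFD replicate 3 was left out. It stood at 116 CPM in HFD replicate 3 (chromosome 11, 120484613 to 120489065), at 0.946 to 5.34 CPM in the other HFD pools and at 0.284 to 2.40 CPM in CD. The log2 fold change was 4.26 ± 1.23 with all libraries (edgeR, adjusted p = 0.0959) and 1.16 without HFD replicate 3. Mrpl10, which anchors the same stalk to the ribosome (chromosome 11, 97041560 to 97049213), stood on the other side, at 21.4, 34.3 and 62.1 CPM in HFD and 40.3, 52.0 and 61.0 CPM in CD. The estimated log2 fold change was −0.42 ± 0.30 (edgeR, adjusted p = 0.419), and HFD replicate 3 (29.6) was not extreme for it. The other large-subunit member below 0 was Mrpl9, the counterpart of bacterial L9 (chromosome 3, 94443318 to 94451130), at 34.0, 134 and 256 CPM in HFD and 80.1, 160 and 406 CPM in CD. Its log2 fold change was −0.34 ± 0.47 (edgeR, adjusted p = 0.708), or 0.03 without CD replicate 4.

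Per length of transcript, the most abundant large-subunit mRNAs were Mrpl18 (156 CPM per kilobase), Mrpl24 (125) and Mrpl53 (118), against a median of 20.1 over the tested large-subunit members. Mrpl18, the counterpart of bacterial L18 (chromosome 17, 12911349 to 12916345), stood at 161, 260 and 302 CPM in HFD and 91.2, 125 and 194 CPM in CD. The diets differed by 0.92 ± 0.27 on the log2 scale (edgeR, adjusted p = 0.0968). With the trend over transcript length removed the value was 0.29. HFD replicate 2 was its lowest HFD pool and the only one below the highest CD values. Mrpl24 had 0.51 ± 0.26 (adjusted p = 0.25) and Mrpl53, specific to mitochondria, 0.99 ± 0.33 (adjusted p = 0.116), both by edgeR, and each came to −0.11 with the trend over transcript length removed. Exons of Mrpl18, Mrpl24 and Mrpl9 overlap genes on the opposite strand (Tcp1, Rrnad1 and Oaz3), and these libraries do not mark the strand. In all, 22 members overlap another gene's exons, so their counts are uncertain.

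In the small subunit, Mrps33, a protein specific to mitochondria (chromosome 6, 39801804 to 39810988), had the smallest p of all members. It stood at 162, 53.0, 287, 93.6, 99.7 and 95.8 CPM in HFD replicates 1 to 6 and at 51.8, 39.1, 14.7, 57.2, 25.7 and 49.0 CPM in CD replicates 1 to 6. Only HFD replicate 2 lay below a CD pool, CD replicate 4. The log2 fold change was 1.74 ± 0.43 (edgeR, unadjusted p = 0.000973, adjusted p = 0.0913) and 1.34 without HFD replicate 3.

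Mrps14, the counterpart of bacterial S14 in the head of the subunit (chromosome 1, 160195215 to 160202170), differed from most members in that HFD replicate 3 did not lead it. It stood at 367, 232, 291, 498, 433 and 726 CPM in HFD replicates 1 to 6 and at 224, 162, 109, 195, 171 and 269 CPM in CD replicates 1 to 6. The log2 fold change was 1.17 ± 0.31 (edgeR, adjusted p = 0.0913), and 1.24 without HFD replicate 3. Only HFD replicate 2 fell below the highest CD pool, replicate 6. Mrps14 was also the most abundant small-subunit mRNA per length (102 CPM per kilobase), followed by Mrps33 (77.5) and Mrps21 (66.0), against a median of 23.1.

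Mrps21 and Mrps16, counterparts of bacterial S21 and S16, stood lower than Mrps14. Mrps21 (chromosome 3, 95862634 to 95871519) stood at 20.8, 28.3 and 92.3 CPM in HFD and 3.88, 12.9 and 23.0 CPM in CD. HFD minus CD came to 1.76 ± 0.48 in log2 units (edgeR, adjusted p = 0.0929). Mrps16 (chromosome 14, 20389304 to 20393634) stood at 19.7, 39.7 and 68.3 CPM in HFD and 9.92, 13.3 and 26.4 CPM in CD. On the log2 scale HFD minus CD was 1.32 ± 0.37 (edgeR, adjusted p = 0.0946). With the trend over transcript length removed, Mrps21 came to 0.25 and Mrps16 to 1.35. In each gene 1 HFD pool lay inside the CD range, HFD replicate 4 for Mrps21 and HFD replicate 2 for Mrps16. Mrps2, the counterpart of bacterial S2, was the small-subunit member below 0 (chromosome 2, 28468066 to 28471178). It stood at 28.4, 36.8 and 58.7 CPM in HFD and 27.9, 43.0 and 60.6 CPM in CD. The diets differed by −0.13 ± 0.28 on the log2 scale (edgeR, adjusted p = 0.822), and the diets overlapped throughout.

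Mrps18c and Mrps31 took their size from few pools. Mrps18c, a counterpart of bacterial S18 (chromosome 5, 100798627 to 100804471), held 217 CPM in HFD replicate 3, 2.13 to 21.1 CPM in the other HFD pools and 0.756 to 4.73 CPM in CD. The estimated log2 fold change was 4.02 ± 1.13 (edgeR, adjusted p = 0.0956), and 1.52 without HFD replicate 3. Mrps31, specific to mitochondria (chromosome 8, 22411361 to 22429665), held 160 CPM there, 4.23 to 43.0 CPM in the other HFD pools and 2.21 to 10.7 CPM in CD. HFD minus CD came to 2.92 ± 0.84 in log2 units (edgeR, adjusted p = 0.0957) and 1.68 without that library. For 12 members HFD replicate 3 held over 5 times the next highest library (17.4%, against 3.7% of all genes).

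Of the 8 members that did not pass the filter, 7 had more counts in HFD replicate 3 than in any other library. Mrpl33 had 757 reads there and 0 to 70 in the other libraries, Mrpl36 268 and 0 to 44, Mrpl52 175 and 0 to 38, Mrps11 162 and 0 to 24, and Mrpl27 154 and 0 to 34. Mrpl23 and Mrpl43 each had 84 there and 0 to 11 and 0 to 14 elsewhere. Mrps34 had 9 reads in HFD replicate 3 and at most 10 in any other library, so little can be said of it at this depth. Every count in HFD replicates 1, 2, 4 and 6 was even, so raw counts there may not be on the scale of the other libraries.

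**Figure D3:**
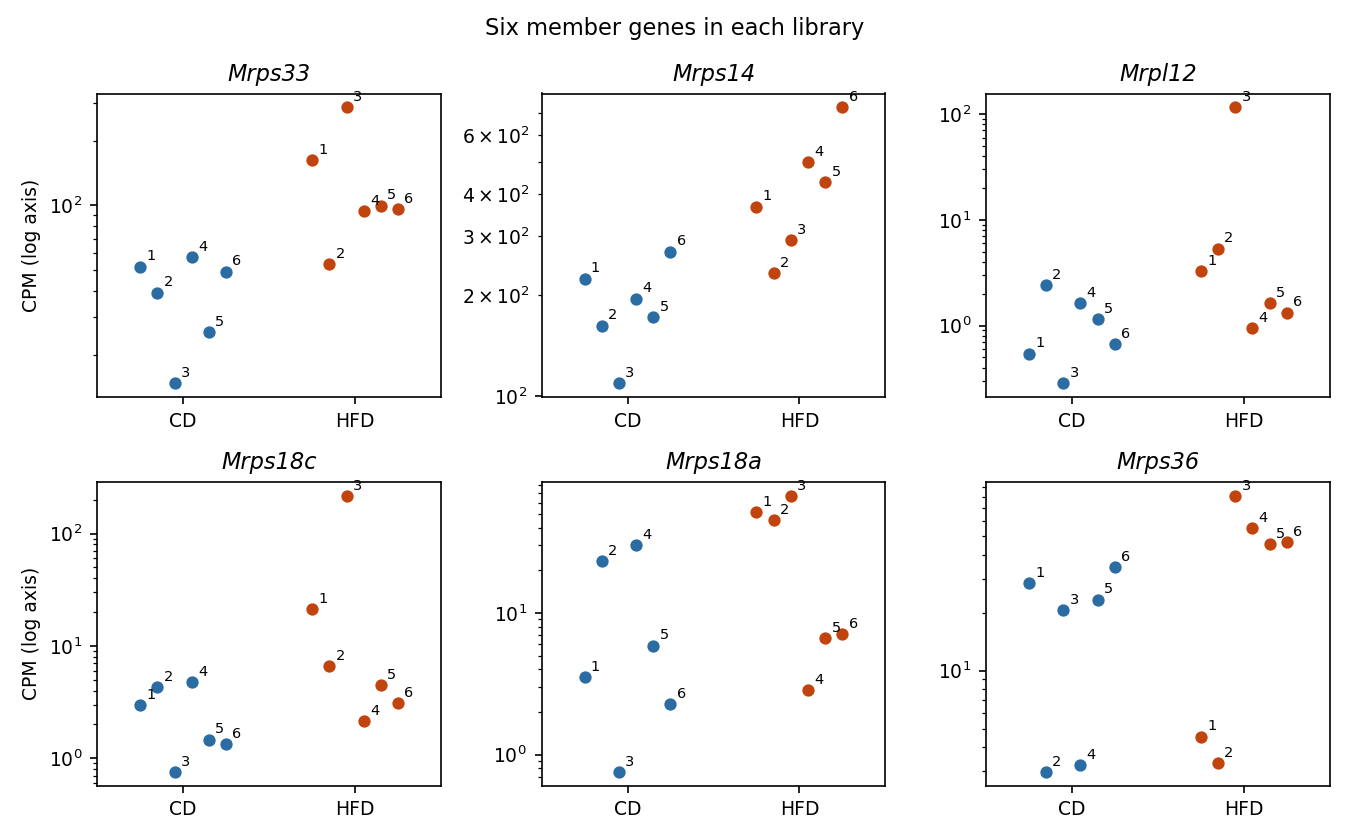
CPM (y axis, log scale) of 6 members in each CD and HFD library, points numbered by replicate. Mrps33 and Mrps14 are spread over the pools of each diet, Mrpl12 and Mrps18c stand out in HFD replicate 3 (116 and 217 CPM), and Mrps18a and Mrps36 put HFD replicates 1 and 2 and CD replicates 2 and 4 at opposite ends.

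Within each diet the pools split along a line that the diet does not follow. CD replicates 2 and 4 were the highest CD pools for 36 of 69 members (52.2%, against 22.4% of all genes) and the lowest for 10 (14.5%, against 22.0%). For 23 members (33.3%, against 13.0%) these pools led the CD group and HFD replicates 1 and 2 also lay above HFD replicates 4, 5 and 6. Both orders were turned around for 8 members (11.6%, against 12.9%). Within HFD alone the members did not lean as they did within CD. HFD replicates 1 and 2 lay above HFD replicates 4, 5 and 6 for 23 of 69 members and below them for 21. Over all genes these counts were 2205 and 2209 of 9935. These 4 libraries are those low in Mos, and were chosen after their values were seen, so the counts are a description. Their part in the comparison of the diets was not tested beyond leaving them out.

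Mrps18a, a relative of bacterial S18 that sits in the large subunit (chromosome 17, 46110986 to 46128910), shows the first order. It stood at 51.2, 45.3, 67.1, 2.84, 6.65 and 7.06 CPM in HFD replicates 1 to 6 and at 3.52, 23.2, 0.756, 30.1, 5.87 and 2.28 CPM in CD replicates 1 to 6. The pools low in Mos held 23.2 to 51.2 CPM, more than any other pool but HFD replicate 3, and the log2 fold change by diet was 1.46 ± 0.90 (edgeR, adjusted p = 0.356). Mrps7, the counterpart of the head protein S7 (chromosome 11, 115603925 to 115608036, chosen after its values were seen), had the same order, at 110 and 74.4 CPM in HFD replicates 1 and 2, 68.1 and 68.6 in CD replicates 2 and 4, 174 in HFD replicate 3 and 3.89 to 11.9 CPM in the other 7. Exons of Mrps7 overlap Gga3 and Mif4gd on the other strand. Mrps30, which also sits in the large subunit (chromosome 13, 118378381 to 118387252), stood at 5.20, 16.9 and 34.9 CPM in HFD and 2.93, 7.87 and 30.5 CPM in CD, again with CD replicates 2 and 4 the highest CD pools. Its log2 fold change was 0.51 ± 0.55 (edgeR, adjusted p = 0.619), or −0.01 without HFD replicate 3 and CD replicate 3.

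Mrps36 had the opposite order. Despite its symbol it is now known as a subunit of the 2-oxoglutarate dehydrogenase complex of the citric acid cycle, and not of the ribosome (chromosome 13, 100735955 to 100744659). It stood at 4.54, 3.31, 80.9, 54.8, 45.2 and 46.6 CPM in HFD replicates 1 to 6 and at 28.5, 2.98, 20.6, 3.24, 23.4 and 34.5 CPM in CD replicates 1 to 6. The 4 pools low in Mos held at most 4.54 CPM and the other 8 at least 20.6 CPM. The estimated log2 fold change by diet was 1.05 ± 0.76 (edgeR, adjusted p = 0.436), or −0.34 with the trend over transcript length removed.

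**Figure D4:**
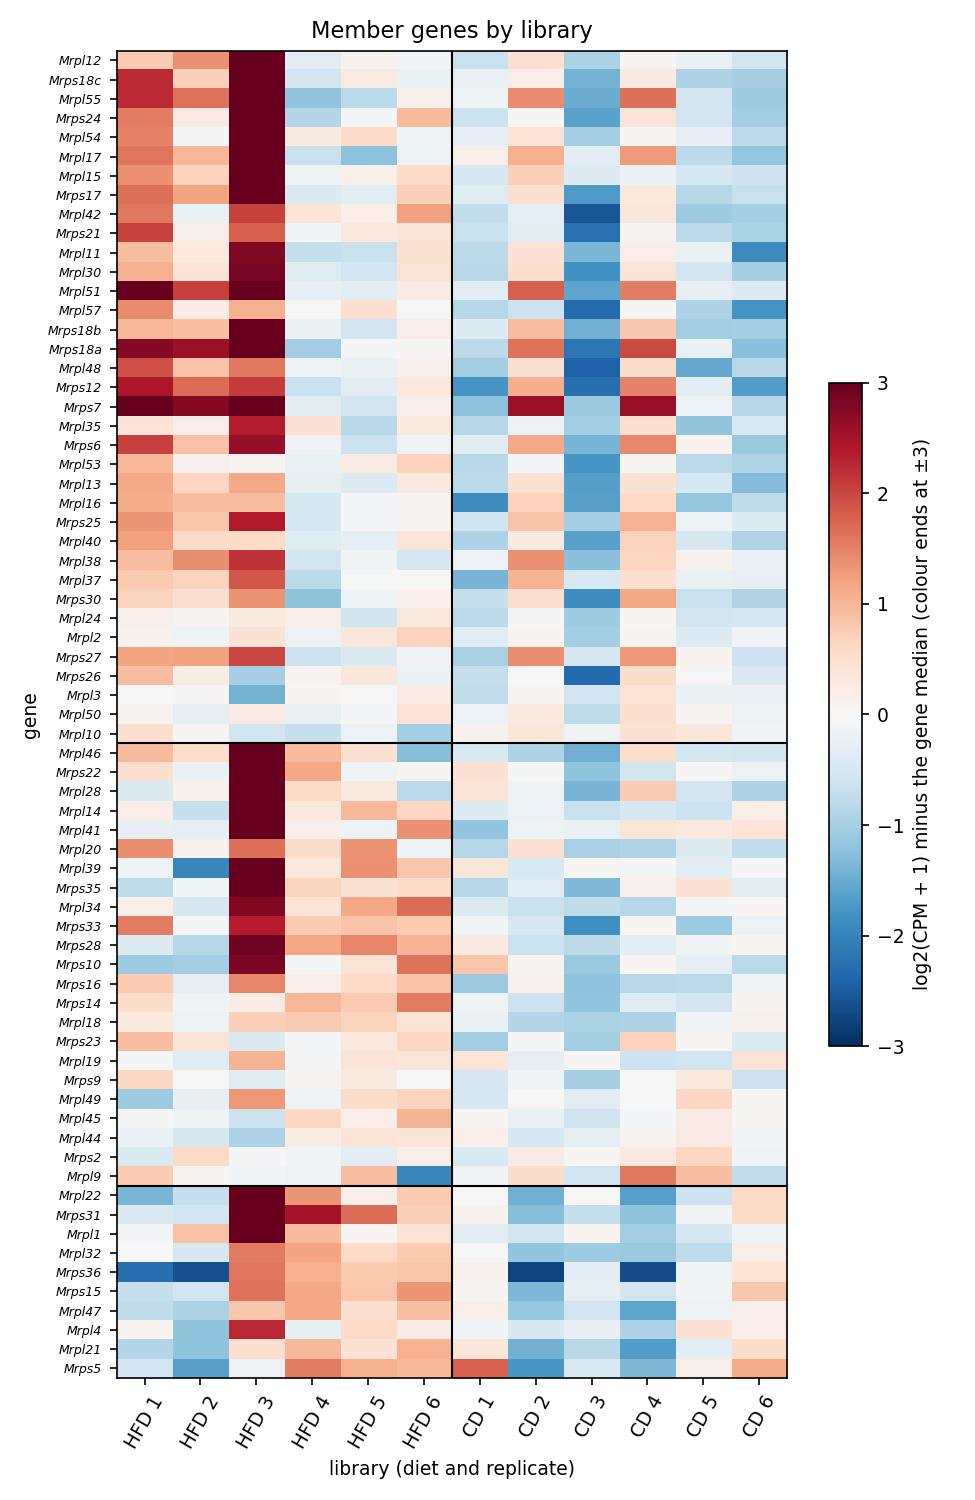
Each of the 69 tested members (rows) in each library (columns) as log2(CPM + 1) minus the gene's median over libraries, red above and blue below. Rows are grouped by whether CD replicates 2 and 4 were the highest CD pools (top, 36 genes), neither (middle) or the lowest (bottom, 10 genes), and sorted within each group by log2 fold change, and the HFD replicate 3 column is red in most rows.

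Members with a bacterial counterpart and members specific to mitochondria did not stand far apart. The 41 tested members with a counterpart had a median log2 fold change of 1.31, with 38 above 0 and 3 below, and the 28 specific to mitochondria 1.22, with all 28 above 0. Those 28 are all tested members without a counterpart, Mrps36 included, although it is not a protein of the ribosome. Without HFD replicate 3 the medians were 0.75 and 0.59. Tested members with ETS letters in their promoter had a median of 1.46 (21 genes) and those without 1.13 (40 genes). For nuclear respiratory factor letters the medians were 1.57 (13) and 1.27 (48), and for YY1 letters 1.29 (10) and 1.32 (51).

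Transcript length ran alongside these values. The members' transcripts had a median of 1316 bases, against 2859.5 over the tested genes with a length, and the slope of log2 CPM on log2 length across genes was −0.244 ± 0.165 (SD, n = 6) in HFD libraries and 0.0938 ± 0.215 in CD. HFD replicate 3 had the lowest slope (−0.521) and CD replicate 3 the highest (0.453). In the shortest of 5 length classes, up to 1622 bases, the median log2 fold change was 0.86 over all genes and 1.61 over the 42 members there. In the next class the medians were 0.13 and 0.35 (8 members), and then −0.17 and 1.32 (6), −0.25 and 1.32 (10), and −0.24 and 0.87 (3). With each library's length trend removed, limma gave a median of 0.44 over the members, with 52 above 0 and 17 below, against −0.05 over all genes, of which 4418 of 9486 were above 0. The medians were then 0.30 for the large and 0.58 for the small subunit. This correction also changed the fit, from counts in edgeR to log2 CPM in limma. Limma-voom with quality weights and no length correction gave a median of 0.79 over the members, with 65 above 0 and 4 below. Named members with transcripts of 2572 to 3013 bases moved little, with log2 differences of 1.76 for Mrpl57, 1.39 for Mrpl32 and 1.25 for Mrps14. Shorter ones stood below their edgeR values. Mrpl42 came to 0.65, Mrpl20 to 0.78, Mrpl12 to 1.39, Mrps33 to 0.91, Mrps18c to 0.89, Mrps31 to 1.51 and Mrps18a to 0.58. In the same order, limma-voom without a length correction gave 1.65, 1.74, 1.24, 1.48, 1.51, 1.56 and 1.01. The members below 0 moved further from it, Mrpl10 to −0.81, Mrpl9 to −0.72 and Mrps2 to −0.25, and Mrps30 came to 0.83. What part length has in the comparison of the diets was not tested beyond that correction. In shifts from the edgeR values, the parts of length and of the changed fit were not separated. Limma-voom used quality weights, which the length-corrected fit did not. Before any length correction, mean log2 CPM averaged 4.70 in HFD and 3.74 in CD over large-subunit members, and 4.72 and 3.63 over small-subunit members.

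**Figure D5:**
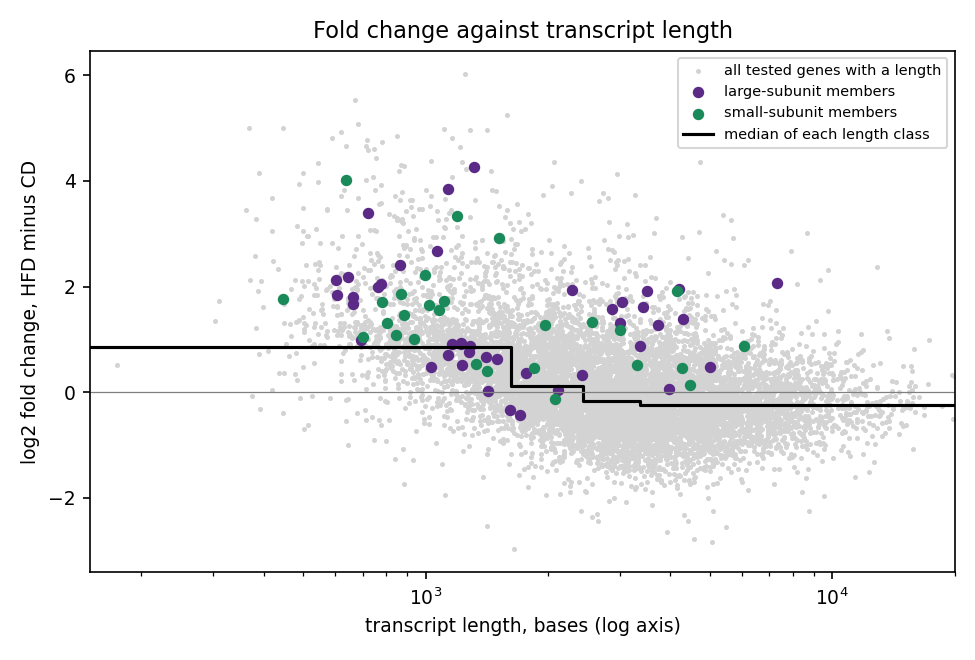
Log2 fold change (HFD minus CD, y axis) against transcript length in bases (x axis, log scale) for all tested genes with a length (grey) and the members of the large and small subunit (coloured), with the median of each of 5 length classes as a black line and the few longest and shortest genes beyond the axis. The line falls from 0.86 to −0.24 with length, and 41 of the 42 members in the shortest class lie above 0.

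The 2 gene families nearest in function had larger medians in the same fit. Nuclear-encoded respiratory chain and ATP synthase subunits, many of which pair with products of the mitochondrial ribosome, had a median log2 fold change of 2.26 over 67 tested genes (75 in the table), and cytoplasmic ribosomal proteins 1.97 over 57 (81 in the table). Without HFD replicate 3 these were 1.12 and 1.08, against 0.70 for the mitochondrial ribosome, and with the length trend removed 0.65 and 0.38, against 0.44. HFD pools lay above all CD pools for 7 respiratory chain genes (10.4%) and 6 cytoplasmic ribosomal genes (10.5%), against 0 mitochondrial ribosomal genes and 1.17% of all genes. The difference between the families was not tested. Their transcripts were shorter, with medians of 870.5 and 833 bases.

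The partners of the mitochondrial ribosome were counted by role, with no test between lists. Of 6 ribosomal proteins known by another symbol, 5 were above 0, with a median log2 fold change of 1.52 (0.36 without HFD replicate 3). By edgeR 0 passed, with 3 higher (50%, against 13.4% of all genes) and 1 lower (16.7%, against 8.89%) at an unadjusted p under 0.05, and DESeq2 called 1 higher (16.7%, against 4.92%). Chchd1, a protein of the small subunit (chromosome 14, 20703006 to 20704425), stood at 6.26, 13.7 and 53.5 CPM in HFD and 0.851, 4.43 and 8.07 CPM in CD. On the log2 scale HFD minus CD was 2.23 ± 0.58 (edgeR, adjusted p = 0.0913). Ict1, a peptidyl-tRNA hydrolase built into the large subunit, held 123 CPM in HFD replicate 3 and 3.87 to 8.75 in the other HFD pools, with 1.52 to 6.51 in CD, and its log2 fold change was 3.07 (1.12 without that library). Ptcd3, an RNA-binding protein of the small subunit (chromosome 6, 71880638 to 71908750), stood the other way, at 31.7, 56.8 and 67.9 CPM in HFD and 52.8, 106 and 134 CPM in CD. The diets differed by −0.86 ± 0.30 on the log2 scale (edgeR, adjusted p = 0.123). All 6 HFD pools of Ptcd3 lay below the CD mean.

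Factors that drive translation in mitochondria had 7 of 14 tested genes above 0 and 7 below, with a median of −0.01. By edgeR 0 passed. At an unadjusted p under 0.05, 1 was higher and 1 lower (7.14% each, against 13.4% and 8.89% of all genes), and DESeq2 called 1 higher (7.14%, against 4.92%). With the length trend removed the median was −0.03, with 6 of 14 above 0. Mtrf1, a release factor, differed by 1.76 ± 0.63 in log2 units (edgeR, adjusted p = 0.134), or 0.998 without HFD replicate 3, and Mtif3, an initiation factor, 0.72 ± 0.49 (adjusted p = 0.407). Gfm1, the elongation factor that moves the ribosome along the mRNA (chromosome 3, 67430096 to 67476529), stood at 29.0, 70.8 and 97.3 CPM in HFD and 74.5, 110 and 179 CPM in CD. HFD minus CD came to −0.82 ± 0.33 in log2 units (edgeR, adjusted p = 0.167). Gfm2, which recycles the ribosome, had −0.59, or −0.24 without CD replicate 3.

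Assembly factors of the ribosome had 15 of 24 tested genes above 0 and 9 below, with a median of 0.16. By edgeR 0 passed. At an unadjusted p under 0.05, 3 were higher (12.5%, against 13.4% of all genes) and 1 lower (4.17%, against 8.89%). DESeq2 called 2 higher (8.33%, against 4.92%) and 1 lower (4.17%, against 2.82%). With the length trend removed the median was −0.19, with 8 of the 21 with a length above 0. Ndufab1, the mitochondrial acyl carrier protein, which also belongs to the first respiratory complex (chromosome 7, 122085403 to 122101886), was at 28.2, 50.1 and 82.8 CPM in HFD and 15.9, 22.0 and 32.2 CPM in CD. On the log2 scale HFD minus CD was 1.26 ± 0.31 (edgeR, adjusted p = 0.0913). Only HFD replicate 2 lay inside the CD range. Malsu1, its partner on the large subunit during assembly, was rare outside HFD replicate 3 (43.4 CPM, and 0.189 to 9.73 in the other 11) and had 3.22 (1.52 without that library). Gtpbp10, a GTPase that helps to build the large subunit (chromosome 5, 5537454 to 5559538), stood at 11.5, 18.3 and 28.4 CPM in HFD and 26, 43.1 and 62.1 CPM in CD. The diets differed by −1.13 ± 0.33 on the log2 scale (edgeR, adjusted p = 0.0968). Afg3l2, a subunit of the protease that trims the Mrpl32 protein, had −0.64 ± 0.30 (edgeR, adjusted p = 0.226), and its HFD and CD pools overlapped. With the length trend removed, Chchd1 came to 0.85, Malsu1 to 1.66, Mtif3 to 0.37 and Gfm2 to −0.29. The tested translation and assembly factors had longer transcripts than the members, with medians of 2560.5 and 2288 bases.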

How the data were processed

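The deposited table gives raw read counts for each gene symbol in 12 libraries, beside 5 lines of tallies of unassigned reads that were kept out of library sizes and tests (66.5% to 72.9% of the reads tallied in HFD, 62.3% to 66.6% in CD). The labels' protocols name the SMART Seq v4 kit for cDNA and Nextera XT for libraries, neither of which marks the strand. Per the submitters' processing notes, STAR, HTSeq 1.0.0, DESeq2 1.0.19 and mm10 were used; their settings and the gene annotation are not stated in the labels. In 4 HFD libraries (replicates 1, 2, 4 and 6) every count is even, and halving them was an alternative.

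All genes were fitted with edgeR 4.0.16 (R 4.3.3): TMM scaling, default filter on low counts (9935 genes), robust quasi-likelihood F-test with diet as the only term, and Benjamini-Hochberg adjustment over all genes tested, with a threshold of 0.05. SEs were derived from the F statistic. CPM are counts scaled to a total of 1000000 with TMM factors, and mean log2 CPM used a prior count of 2. Alternatives used DESeq2 1.42.0 and limma 3.58.1, other scalings and filters, the replicate number as a block, each library left out, and a loess correction for length. The length correction was made on log2 CPM and fitted with limma. Positions and transcript lengths (APPRIS principal transcripts where annotated) came from GENCODE M21, with a length for 95.5% of tested genes. Counts of same-diet libraries had a chi-square of 25.1 to 328 for each degree of freedom, far above sampling noise. Reads carry no molecular identifiers.

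The members and gene lists were chosen with earlier results of these data known, so lists are given as counts and medians without tests. Named members were, in each subunit, the 6 with the smallest p above 0, the 3 with the smallest p below 0 and the 3 with the highest CPM per kilobase, plus Mrps18a, Mrps30 and Mrps36. Of each partner list, 2 genes in each direction were named. Processed pseudogenes can share reads with members. Promoters were at hand for all members except Mrpl4, Mrpl13, Mrpl15, Mrpl19, Mrpl38, Mrpl54, Mrps28, Mrps34 and Mrps35.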

Additional observations from a re-analysis of the deposited data

Results flagged for a closer look

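In each diet 32 named genes and 4 library measures were checked, giving 72 groups of 6 libraries. In 12 groups a library's gap to its nearest neighbour, as a share of the group's range, was larger than Dixon's critical value. Chance gives about 1 in 20 only for independent, normally distributed groups. Here CPM are skewed, the measures share genes and most named genes were chosen by p, so the 12 cannot be set against that rate. HFD replicate 3 was the library apart in 9 of the 12. Its mean log2 CPM was 6.24 for large-subunit and 6.28 for small-subunit members, against 4.23 to 4.74 and 4.17 to 4.80 in the other HFD pools, and its members summed to 7810 CPM against 3020 to 4610. Single genes in which it stood apart were Mrpl12 (116 CPM), Mrps18c (217 CPM), Mrps31 (160 CPM), Ict1 (123 CPM), Mtrf1 (64.3 CPM, others up to 23.2) and Malsu1 (43.4 CPM, others up to 9.73).

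Another 3 genes had a library apart from its diet: Mrpl24 in HFD replicate 5 (113 CPM, against 175 to 208), Mrpl20 in CD replicate 2 (3.46 CPM, against 0.662 to 1.47) and Gfm2 in CD replicate 3 (53.9 CPM, against 12.1 to 27.4).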

How the results depend on the processing

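The 0 members called by edgeR became 17 with DESeq2 (24.6%, against 4.92% of all genes) and 16 among the 8 libraries with odd counts (HFD replicates 3 and 5 against 6 CD; 23.2%, against 3.98%), and stayed 0 under all other alternatives, the replicate block included (median 0.95 over the members, 65 above 0). The numbers 1 to 6 were not read as pairs, since same-numbered pools correlated between −0.452 and 0.550. Leaving out 1 library at a time, the count stayed at 0, the large-subunit median ran from 0.71 to 1.38 and the small-subunit median from 0.66 to 1.68. Without HFD replicate 3 and CD replicate 3 together they were 0.57 and 0.51, with the length trend removed 0.30 and 0.58, and without the pools low in Mos the small-subunit median was 2.04. The large minus small difference (−0.01) changed sign with no filter (0.27), limma-voom (0.02) and both replicates 3 left out (0.05), ran from −0.33 to 0.09 with 1 library left out, and was −0.38 with a mean of at least 10 CPM, −0.28 with the length trend removed and −0.30 without the pools low in Mos; the causes were not tested. Scaling by total counts moved the median of all genes from 0.04 to −0.06 and left 62 of 69 members above 0.

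Of the 32 named genes, Mrpl9 ran from −0.57 (without HFD replicate 5) to 0.03 (without CD replicate 4) with 1 library left out and was −0.72 with the length trend removed, Mrps30 turned to −0.01 without both replicates 3, and Mrpl24 (−0.11), Mrpl53 (−0.11) and Mrps36 (−0.34) with the length trend removed. In 24 of 797 further fits a named gene passed the threshold, 16 by DESeq2 and 8 in the odd-count libraries. The fits that leave out pools low in Mos were chosen after seeing the data.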
